A study of Homo sapiens with 30 samples.

Results

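SAP30 bound 1787 stretches of the MDA-MB-231 genome that lay away from promoters and carried no SIN3A or SIN3B region. No parental H3K9Ac or H3K4me3 summit, extended by 500 bp at either side, overlapped them. These 1787 made up 7.21% of 24796 SAP30 regions. A SAP30 region held a peak summit of both parental SAP30 libraries after each summit was extended by 500 bp at either side and overlapping windows were merged. The 1787 were chosen by measured peak lists: no SIN3A or SIN3B region made in the same way, no summit within 1000 bp of a start site of a coding or lncRNA gene, and no overlap with an extended H3K9Ac or H3K4me3 summit of either parental library. They are called unmarked distal regions below. Their lack of SIN3 regions, promoters and summits of the marks follows from that choice and is no finding.

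The libraries were ChIP-seq of MDA-MB-231 cells, a triple-negative breast cancer line, long established, of mesenchymal character. Antibodies to SAP30, SIN3A and SIN3B were used on parental cells, and those to RNA polymerase II (Pol II), H3K9Ac and H3K4me3 on parental and SAP30-KO1 cells. SAP30-KO1 is a line in which SAP30 was knocked out by CRISPR/Cas9, and it is a mixture of several single-cell clones. Each of these 9 groups had 2 libraries, with 10861 to 54622 summits per library, and a further 12 input and total H3 samples were not analysed here. SAP30 was not profiled in SAP30-KO1 cells, so how much of the signal at these regions depended on SAP30 was not tested. The labels do not say whether the 2 libraries of a group came from separate cultures, so p-values measure the spread between these libraries, which may be technical. Of the 6 mesenchymal markers VIM, AXL, CD44, SNAI2, FOSL1 and CAV1, 6 had H3K4me3 and Pol II at a start site in both parental libraries. Of the 6 luminal markers, 5 had H3K4me3 in both libraries and 1, EPCAM, had Pol II in both, while ESR1, PGR, FOXA1 and CDH1 had H3K4me3 without Pol II and GATA3 had neither.

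SAP30 is a small subunit of the SIN3 corepressor complex, which is built on the scaffold SIN3A or SIN3B and removes acetyl groups from histones through HDAC1 and HDAC2. Acetylated H3K9 marks active promoters and enhancers, and trimethylated H3K4 marks promoters. Enhancers in cells of this kind are often bound by AP-1, a dimer of FOS and JUN proteins. Its letters were searched for here as TGANTCA, with any base at N, which is looser than a binding site. The sequence CACGTG, the E-box, is read by basic helix-loop-helix factors such as MYC, MAX and USF. CEBP factors, basic leucine zipper proteins, read sites of the form ATTGCNNAA.

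The DNA under 4 of the 5 regions with the best SAP30 rank is shown first so that the letters at the summits can be read. The E-box in 3 of them was found in 14.7% of all unmarked distal regions and AP-1, in 1 of them, in 51.3%. A region's rank is the position of its best summit by the authors' score within each SAP30 list, from 0% for the best to 100% for the worst, averaged over both lists. Each sequence is 151 bases of the plus strand of GRCh37 centred on the better-ranked summit, in lower case, with matches to AP-1, E-box, CEBP, CTCF and the left part of the REST motif (TTCAGCACC) in capitals.
DNASE1L3, chr3:58203271-58203421: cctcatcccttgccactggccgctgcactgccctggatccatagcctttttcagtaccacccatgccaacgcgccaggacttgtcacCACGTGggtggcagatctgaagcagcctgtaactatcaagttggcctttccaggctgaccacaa
NPY4R, chr10:47045329-47045479: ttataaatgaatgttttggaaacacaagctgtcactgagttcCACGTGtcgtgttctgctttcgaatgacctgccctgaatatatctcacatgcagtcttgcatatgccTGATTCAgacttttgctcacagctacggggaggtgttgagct
CRISPLD2, chr16:84885183-84885333: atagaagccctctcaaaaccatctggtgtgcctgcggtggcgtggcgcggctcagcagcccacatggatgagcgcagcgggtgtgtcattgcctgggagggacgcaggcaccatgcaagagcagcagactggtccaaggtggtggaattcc
SULF2, chr20:46912601-46912751: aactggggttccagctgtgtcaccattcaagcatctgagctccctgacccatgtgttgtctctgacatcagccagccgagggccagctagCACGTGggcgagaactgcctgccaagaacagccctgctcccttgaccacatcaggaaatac
The first, upstream of DNASE1L3, a nuclease of extracellular chromatin, held an E-box 14 bp after the summit. The NPY4R sequence held an E-box 31 bp before the summit and the AP-1 letters TGATTCA 37 bp after it. NPY4R has near-identical copies nearby, so the summit there is uncertain if reads were split between them. The SULF2 sequence held an E-box 17 bp after the summit. The CRISPLD2 sequence held no match to these motifs, which says only that these letters are not in this window.

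SAP30 signal at the unmarked distal regions was low in rank. Their median rank was 66.5%, from 8.62% to 99.9%, against 61.3% for the 7054 distal SAP30-only regions that carried H3K9Ac or H3K4me3, called marked distal regions. The other classes ranked better, with medians of 39.7% for 2823 distal regions with SIN3, 46.9% for 2941 promoter regions with SAP30 alone and 16.2% for 10191 promoter regions with SIN3. In the lists taken singly, the median rank of the unmarked distal regions was 63.9% in replicate 1 and 64.9% in replicate 2. Of the 2479 SAP30 regions in the best decile of rank, 0 were unmarked and distal (a count of 0 allows up to 0.121%), and in the worst decile 495 of 2480 were (19.96%). Ranks are given without a test because SAP30 peaks chose the regions.

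**Figure D1:**
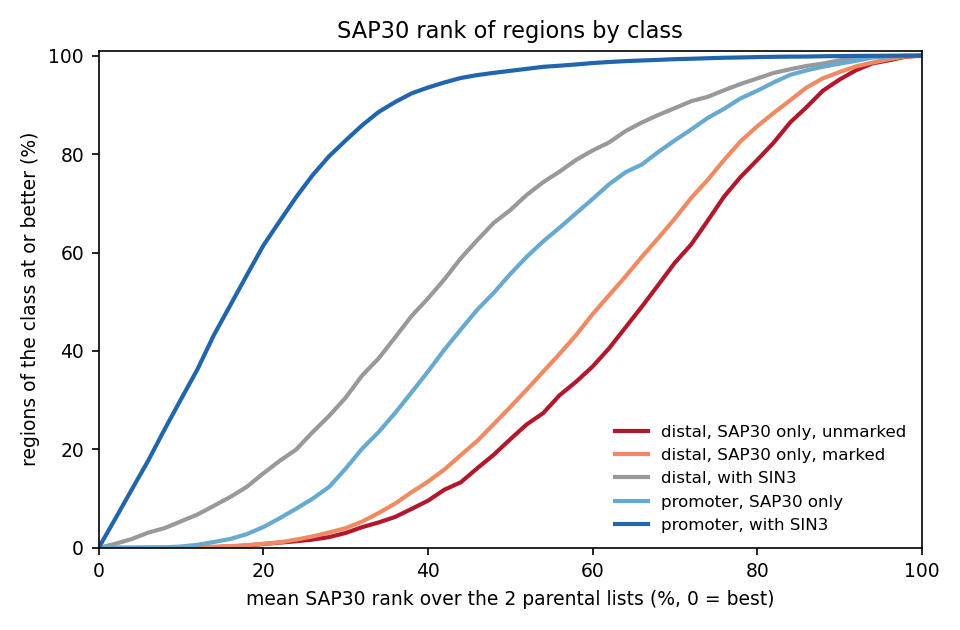
Cumulative share of each class of SAP30 regions (vertical axis, %) against the mean SAP30 rank over both parental lists (horizontal axis, %, 0 is best), with 1 line per class. The line of unmarked distal regions lies lowest over most of the axis, with a median of 66.5%, and that of promoter regions with SIN3 rises first, with a median of 16.2%.

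The rule asked for a summit of both SAP30 libraries, so the distance between them describes the regions kept. With only 1 of the libraries used, 3015 or 3553 regions met the rest of the rule, against 1787 with both. In these 1787 the summits of the 2 replicates lay a median of 35 bp apart, with quartiles of 15 and 68 bp, and 1558 of 1787 regions (87.2%) had them within 100 bp. For marked distal regions the median was 46 bp. A single summit per replicate was found in 1687 regions. The ranks of a region in the 2 lists differed by a median of 11.7 percentage points.

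Most unmarked distal regions had no SIN3 summit in any single library. A summit of a single SIN3B library touched 292 unmarked distal regions, 202 in replicate 1 and 90 in replicate 2. A summit of a single SIN3A library touched 29, 11 in replicate 1 and 18 in replicate 2. Together 308 regions (17.2%) had such a summit and 1479 (82.8%) had none in any of the 4 SIN3 libraries. The rule had left out regions that overlap a SIN3A or SIN3B region, so these shares are limited by the choice. No share of another class is set beside them here. Such summits were found in 27 of the 50 best-ranked regions (54.0%; 95% Wilson interval 40.4 to 67.03%). All intervals given here cover counting error only and treat regions as independent.

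Most unmarked distal regions sat inside genes. The midpoint of the summits lay in an intron in 1140 regions (63.8%; 61.5 to 66.0%), between genes in 536 (30.0%), in an exon outside annotated UTRs in 70 and in a UTR in 41. Marked distal regions had nearly the same makeup, with 62.6% (61.5 to 63.7%) in introns. The distance from the midpoint to the nearest start site had a median of 15358 bp, against 14593 bp for marked distal regions and 7135 bp for distal regions with SIN3. Only 106 regions lay within 2000 bp of a start site, and 98 lay more than 100 kb away. At the limits of the rule, the region nearest to a start site lay 1023 bp from it by its midpoint, and the region nearest to parental H3K9Ac had a SAP30 summit 1001 bp from one of that mark. The marked distal regions left out for H3K9Ac alone reached out to 998 bp, but with a median of 230 bp, against 13309 bp for the unmarked distal regions. The nearest parental H3K4me3 summit lay a median of 24609 bp away.

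The 10 best-ranked regions were near genes of varied function. Among the first 5 are the 4 shown above. DNASE1L3 had its start site 2917 bp from the region, which ranked 12.2% and 5.02% in the 2 lists. NPY4R, a receptor for pancreatic polypeptide, was 38073 bp from a region that ranked 11.04% and 18.7%. At CRISPLD2, a secreted protein, the region lay in an intron 31650 bp downstream of the start site and ranked 18.7% and 11.9%. The region of SULF2, an enzyme that removes sulfate from heparan sulfate outside the cell, ranked 13.9% and 16.9% and lay 497328 bp upstream, with a lncRNA start site nearer at 8553 bp.

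The next 5 had mean ranks of 16.5% to 18.6%. They lay 10042 bp upstream of NFIX, a transcription factor of the nuclear factor I family, in introns of ADAM12, a membrane metalloprotease, DNAH2, a heavy chain of axonemal dynein, and SERTAD2, a transcriptional coregulator, and in an exon of HES3, a repressor of the HES family, 1052 bp from its start site. Of the 10 regions, 5 were intergenic, 4 intronic and 1 exonic. None of the 10 had a Pol II summit in any of the 4 Pol II libraries. In SAP30-KO1 cells H3K9Ac appeared at the SERTAD2 region in both libraries, with ranks of 85.9% and 54.9% in the H3K9Ac lists, and at the DNAH2 region in replicate 2 alone, at 94.9%. The SERTAD2 region was close to the limits of the rule. It lay 1273 bp from a parental H3K9Ac summit, 1412 bp from a parental H3K4me3 summit and 1189 bp from a lncRNA start site. A single SIN3A or SIN3B library had a summit at 6 of the 10, among them the regions of DNASE1L3, CRISPLD2 and ADAM12.

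Most unmarked distal regions were the only one of their class at their nearest coding gene, and a few genes had many. By nearest coding gene, 1526 genes had at least 1 region, 1343 had a single one, 183 had 2 or more and 46 had 3 or more. DNAJB6, an HSP40 co-chaperone, had 13, SULF2 had 10, and PREX1, an exchange factor for the small GTPase RAC, had 7. CRISPLD2, PPIF (the mitochondrial cyclophilin), EXT1 (a heparan sulfate polymerase) and ST14 (the protease matriptase) had 5 each.

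The regions assigned to DNAJB6 spread over 630423 bp of chromosome 7, from 157066299 to 157696722, with mean SAP30 ranks of 19.9% to 93.6%. Of the 13, 3 lay in DNAJB6 itself and 8 in PTPRN2, a receptor-type phosphatase whose gene lies beside it and whose start sites are farther away. All 10 regions of SULF2 lay upstream of it between genes, from 5609 to 497328 bp away, with ranks of 15.4% to 92.2%. The 7 regions of PREX1 spread over 468741 bp on the same chromosome, 3 of them within the gene. At these 3 genes, 0 of the 30 regions had H3K9Ac in either SAP30-KO1 library. It was found at 3 of 5 regions at CRISPLD2, 2 of 5 at EXT1 and 1 of 5 each at PPIF and ST14. The share was 22.7% of all unmarked distal regions and 24.8% of all SAP30 regions without parental H3K9Ac. These genes were picked for their number of regions, neighbouring regions are not independent, and no test was made. DNAJB6 had 5 marked distal regions, PREX1 had 1 and SULF2 had 0, whereas EXT1 had 14 beside its 5 unmarked ones. In bins of 1 Mb, 31 of the 1031 bins with an unmarked distal region held 5 or more. Another unmarked distal region lay within 20000 bp of 189 regions (10.6%), and the median distance to the nearest one was 232388 bp. SAP30 regions of other classes were not counted in these distances.

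Across chromosomes, the unmarked distal regions were 2.53% of the SAP30 regions on chromosome X and 10.1% on chromosome 20. As a share of all SAP30-only distal regions they ranged from 12.0% on chromosome X to 26.9% on chromosome 16.

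AP-1 letters were the most frequent of the 17 motifs searched for at the unmarked distal regions. Within 150 bp of the better-ranked summit, a window read on both strands, 917 regions (51.3%; 49.0 to 53.6%) held TGANTCA. The share was 43.6% (42.5 to 44.8%) in marked distal regions, 35.6% in distal regions with SIN3, 12.4% in promoter regions with SAP30 alone, 4.92% in promoter regions with SIN3 and 23.7% in all SAP30 regions. Windows of the same length 1000 bp to either side of the unmarked distal summits held it in 8.90% (8.01 to 9.88%). The interval of the unmarked distal regions overlapped none of these. The motif matches are descriptions of sequence, and binding of the factors was not measured.

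E-boxes and CEBP letters were also more frequent than in marked distal regions. CACGTG was found in 262 unmarked distal regions (14.7%; 13.1 to 16.4%), against 9.36% (8.70 to 10.1%) of marked distal regions, 13.0% (11.8 to 14.3%) of distal regions with SIN3, 11.3% of all SAP30 regions and 4.03% of the flanking windows. ATTGCNNAA was found in 162 (9.07%; 7.82 to 10.5%), against 4.45% (3.99 to 4.96%) of marked distal regions, 2.79% of all SAP30 regions and 3.19% of the flanking windows. The left part of the REST motif, read by a repressor of neuronal genes that recruits SIN3, was found in 30 regions (1.68%; 1.18 to 2.39%), 0.340% of marked distal regions, 0.617% of all SAP30 regions and 0.224% of the flanking windows. At least 1 of the AP-1, E-box and CEBP motifs was present in 1155 regions (64.6%), and AP-1 and an E-box were both present in 118.

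**Figure D2:**
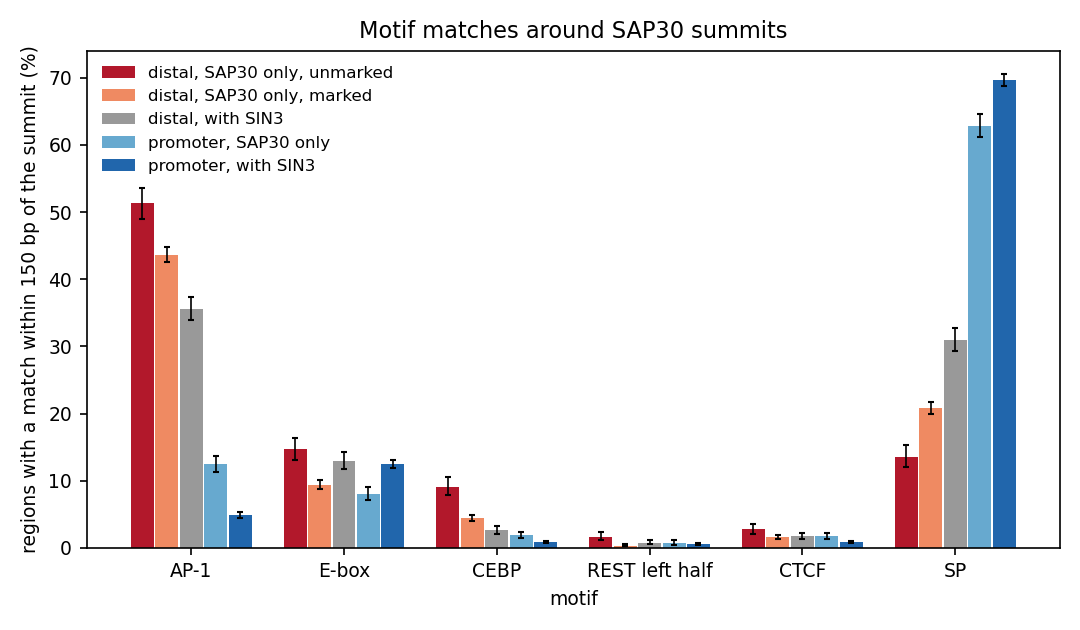
Share of regions with a motif match within 150 bp of the SAP30 summit (vertical axis, %) for 6 motifs and 5 classes of SAP30 regions, with bars for shares and lines for 95% Wilson intervals. AP-1 was highest in unmarked distal regions at 51.3%, and GGGCGG, the SP motif, was lowest there at 13.6%.

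Promoter-type sequence was scarce beside promoter regions. GGGCGG, the GC box read by SP factors, was found in 13.6% of unmarked distal regions, 20.8% of marked distal regions and 7.89% of the flanking windows. The share was 31.0% of distal regions with SIN3, 69.6% of promoter regions with SIN3 and 46.5% of all SAP30 regions. The median GC content of the window was 51.2% and the median number of CpG sites 5. Marked distal regions were close, at 52.5% and 6, and promoter regions with SIN3 had 69.1% and 29. Flanking windows had a median GC content of 46.8%. The CTCF motif was found in 49 regions (2.74%; 2.08 to 3.61%) and in 1.55% (1.28 to 1.86%) of marked distal regions. It was in 1.38% of all SAP30 regions and 0.112% of the flanking windows. The RUNX letters TGTGGTT were found in 11.5% (10.1 to 13.03%) of unmarked and 9.20% (8.55 to 9.90%) of marked distal regions. The FOX letters TGTTTAC were found in 7.33% (6.21 to 8.63%) and 5.54% (5.03 to 6.10%). In the flanking windows RUNX letters were found in 4.59% and FOX letters in 3.47%. For the TEAD letters GGAATG, the GATA letters AGATAA and the STAT letters TTCNNNGAA the intervals overlapped, at 23.3% and 22.99%, 9.51% and 9.60%, and 8.62% and 7.78% in that order. The flanking windows held TEAD letters in 15.2%, GATA letters in 15.7% and STAT letters in 8.76%. ETS (CCGGAAG), NRF1 (GCATGCGC), CRE (TGACGTCA) and NF-kB (GGAATTTCC) letters were found in 2.74%, 0.280%, 0.280% and 0.448% of unmarked distal regions in that order. The steroid receptor letters ACANNNTGT were in 9.40% and the p53 letters CATGTC in 15.9%, against 8.95% and 12.5% of marked distal regions. They were in 5.34% and 9.47% of all SAP30 regions and in 7.92% and 12.4% of the flanking windows.

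The matches lay close to the summits. Of 1116 AP-1 matches in the windows, 53.1% lay within 50 bp of the summit, at a median of 48 bp. The 286 E-boxes had a median of 31 bp and the 183 CEBP matches a median of 25 bp, with 65.7% and 72.7% of them within 50 bp. In steps of 20 bp, AP-1 letters reached 3.47 matches per kb in the step centred 10 bp after the summit, E-boxes 1.45 and CEBP letters 1.29 in the same step.

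**Figure D3:**
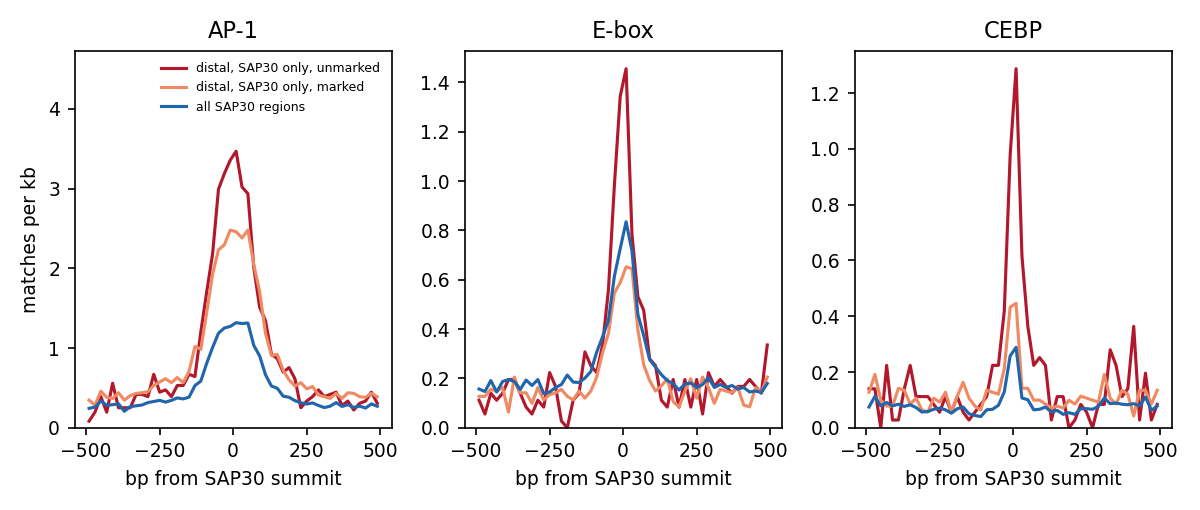
Matches per kb (vertical axes) in steps of 20 bp against the distance from the SAP30 summit (horizontal axes, bp) for AP-1, E-box and CEBP letters. The lines for unmarked distal regions peak in the step centred at 10 bp, at 3.47, 1.45 and 1.29 matches per kb, above those of marked distal regions and of all SAP30 regions there.

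The E-box and CEBP shares were higher at better SAP30 ranks, and the AP-1 share was similar throughout. Among unmarked distal regions ranked better than 40%, 19.3% (14.1 to 25.9%) held an E-box, and among those ranked 80% or worse 10.3% (7.62 to 13.8%) did. For CEBP the shares were 14.0% (9.62 to 20.03%) and 5.28% (3.44 to 8.01%), and for AP-1 49.1% (41.7 to 56.6%) and 52.8% (47.7 to 57.7%). The 50 best-ranked regions held an E-box in 18 (36%; 24.1 to 49.9%). Within strata of rank the difference from marked distal regions was present in part. For E-boxes the shares were 19.3% against 17.5% better than rank 40%, 19.3% against 9.92% from 40 to 60%, 12.8% against 7.65% from 60 to 80% and 10.3% against 4.94% beyond. For CEBP they were 14.0% against 6.65%, 11.3% against 4.79%, 8.40% against 3.79% and 5.28% against 3.36% in the same strata. For AP-1 they were 49.1% against 41.7%, 50.9% against 43.8%, 51.3% against 44.8% and 52.8% against 42.3%. The intervals overlapped in the best-ranked stratum for E-boxes and AP-1 and in the worst-ranked stratum for CEBP.

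Pol II was nearly absent from the unmarked distal regions. A Pol II summit was called at 33 and 48 of them in the 2 parental libraries and at 25 and 24 in the 2 SAP30-KO1 libraries, 40.5 ± 10.6 and 24.5 ± 0.707 (SD, n = 2). The parental mean was 2.27% of the regions, against 26.8% of marked distal regions and 53.5% of distal regions with SIN3. It was 58.7% of promoter regions with SAP30 alone and 96.0% of promoter regions with SIN3. Both SAP30-KO1 counts were below both parental counts. The ratio of the means was 0.605, with an exact permutation p of 0.33 over libraries (two-sided), the smallest that 2 against 2 can give. The same ratio was 0.600 in marked distal regions, 0.759 in distal regions with SIN3, 0.755 in promoter regions with SAP30 alone and 0.970 in promoter regions with SIN3. With the better-ranked 50% of each Pol II list the direction turned, with 3 and 6 parental and 6 and 4 SAP30-KO1 regions, a ratio of 1.11. The parental lists held 20736 and 23002 Pol II summits and the SAP30-KO1 lists 23342 and 22123. In all, 1715 regions (96.0%) had Pol II in none of the 4 libraries.

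The Pol II counts came from few regions. In both parental libraries 25 had it, of which 7 had it in neither SAP30-KO1 library (28.0%; 14.3 to 47.6%), beside 6.56% of 13818 over all SAP30 regions with Pol II in both parental libraries and 26.4% (24.1 to 28.9%) of 1336 marked distal regions. The reverse, both SAP30-KO1 libraries and neither parental one, was found at 0 of 1731, which allows up to 0.173%, beside 0.965% of 8709 over all SAP30 regions. In marked distal regions it was found at 0.369% (0.231 to 0.590%) of 4606. The 7 were looked up after their values were seen. The best-ranked, 1660 bp upstream of CLDN7, a tight junction protein, had SAP30 ranks of 28.8% and 27.9%. Others lay in introns of KRT80, a keratin of epithelial cells, 2445 bp from its start site, and of ANKRD1, a target of YAP, 2803 bp from its start site, and 2059 bp upstream of OAF. The remainder lay in an intron of SHANK1, in a UTR of SYNGR2 and between genes 102767 bp from GOLGA6L9, a member of a family of near-identical copies, for which the position is uncertain.

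H3K9Ac in SAP30-KO1 cells was found at a minority of the regions. The rule set both parental libraries to 0, so any H3K9Ac in SAP30-KO1 counted as a gain, and no test of the direction was possible. A summit was called at 239 and 290 regions in the 2 SAP30-KO1 libraries, at 405 in either (22.7%) and at 124 in both (6.94%; 5.85 to 8.21%). Over all 2621 SAP30 regions without H3K9Ac in either parental library, 24.8% had it in either SAP30-KO1 library and 7.33% in both. The unmarked distal regions, which are 1787 of those 2621, had shares near that background. The reverse choice, distal SAP30-only regions without either mark in SAP30-KO1, gave 1963 regions, of which 175 (8.91%; 7.73 to 10.3%) had H3K9Ac in both parental libraries. The parental lists had 54622 and 53651 H3K9Ac summits and the SAP30-KO1 lists 50862 and 50807.

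The gained H3K9Ac was itself low in rank. The mean rank of the 124 in the SAP30-KO1 H3K9Ac lists had a median of 75.9%, from 30.4% to 97.2%, and 12 were better than 50%. They did not stand out by SAP30 rank, with a median of 66.5%, against 66.9% for the 1382 regions without H3K9Ac in either SAP30-KO1 library. They lay nearer to parental H3K9Ac, a median of 8951 bp away against 14928 bp. An E-box was present in 9 of the 124 (7.26%; 3.87 to 13.2%) and in 14.8% (13.0 to 16.7%) of the 1382, and AP-1 letters in 58.1% (49.3 to 66.4%) and 50.7% (48.1 to 53.4%). A single SIN3A or SIN3B library had a summit at 25% (18.2 to 33.3%) and 14.8% (13.1 to 16.8%), and Pol II was called in at least 1 library at 13 of the 124 and 35 of the 1382.

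**Figure D4:**
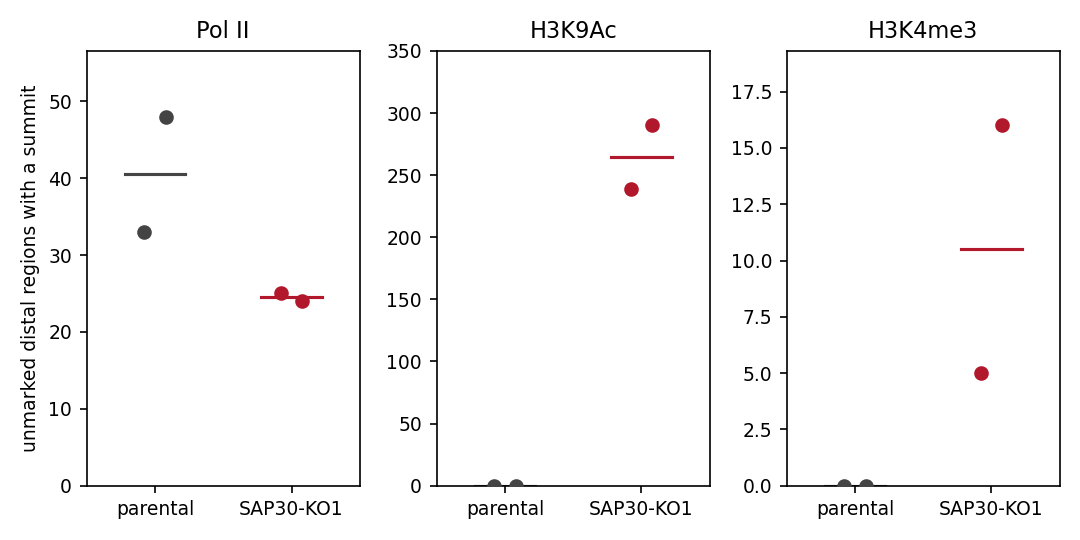
Number of the 1787 unmarked distal regions with a summit of Pol II, H3K9Ac or H3K4me3 (vertical axes, on separate scales) in each parental and SAP30-KO1 library, with 1 point per library and a line at the mean of 2. Pol II points lie at 33 and 48 against 25 and 24, and the parental H3K9Ac and H3K4me3 points are at 0 by the choice of regions.

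Regions close to parental H3K9Ac, a distance the rule itself limited from below, had the highest share with gained H3K9Ac. It was 15 of 84 (17.9%; 11.1 to 27.4%) for regions 1000 to 1500 bp from a parental H3K9Ac summit and 10.1% (5.58 to 17.6%) for those 1500 to 2000 bp away, with overlapping intervals and no test. Farther out it was 5.96% from 2000 to 5000 bp, 8.97% from 5000 to 10000 bp, 5.23% from 10000 to 50000 bp and 5.90% (3.81 to 9.03%) beyond 50000 bp. Of the 124 gained regions, 25 (20.2%) lay within 2000 bp of parental H3K9Ac, against 8.10% of those without it.

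**Figure D5:**
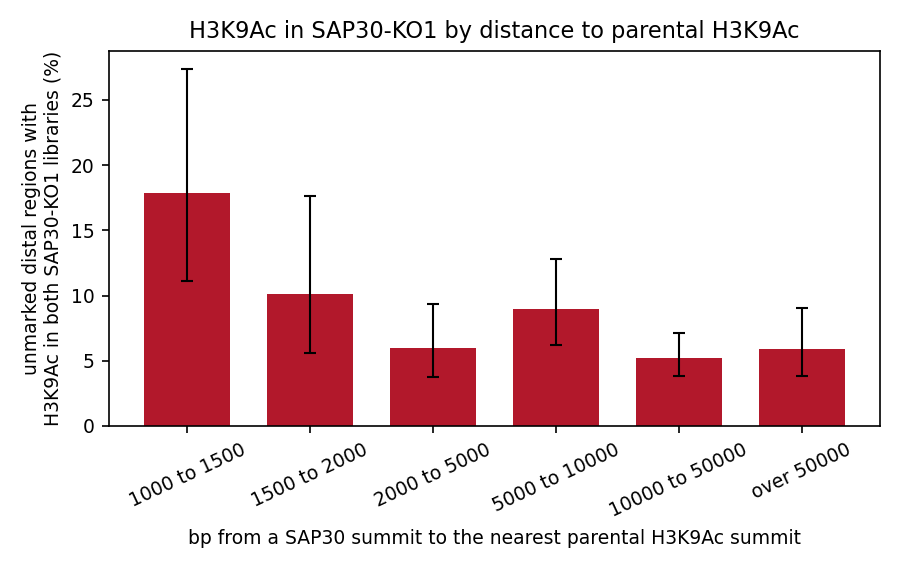
Share of unmarked distal regions with H3K9Ac in both SAP30-KO1 libraries (vertical axis, %) by distance from a SAP30 summit to the nearest parental H3K9Ac summit (horizontal axis, bp), with bars for shares and lines for 95% Wilson intervals. The bar is highest at 17.9% for 1000 to 1500 bp and lies between 5.23% and 8.97% beyond 2000 bp.

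The 5 gained regions with the best H3K9Ac rank were at COL13A1, RAI1, PODXL, KLF6 and TNFRSF1A. The first lay in an intron of COL13A1, a transmembrane collagen, 67124 bp from its start site, and ranked 35.5% and 25.3% in the SAP30-KO1 H3K9Ac lists. Pol II was called there in both parental libraries and in SAP30-KO1 replicate 1. RAI1, a chromatin-binding transcriptional regulator, had its gained region in an intron with H3K9Ac ranks of 36.1% and 25.6%. At PODXL, a sialomucin of the cell surface, the region lay in an intron, 1544 bp upstream of the nearest start site. Its H3K9Ac ranks were 26.6% and 37.0%. The region upstream of KLF6, a zinc finger transcription factor, had ranks of 27.6% and 38.0%. The region in an exon of TNFRSF1A, a receptor for TNF, had ranks of 26.3% and 42.2%. Their SAP30 ranks were poorer, with means of 72.3%, 88.9%, 62.6%, 65.4% and 88.4% in that order. The 5 lay 1078 to 7813 bp from a parental H3K9Ac summit, the nearest at PODXL.

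The DNA around the better-ranked SAP30 summit of the best gained region of each mark is shown. The summit of the gained mark may lie outside these bases. Neither sequence holds AP-1, E-box, CEBP, CTCF or REST letters within the bases shown. Over the wider window around the SAP30 summit, AP-1 letters were present in 72 of the 124 regions that gained H3K9Ac. Each is again 151 bases of the plus strand of GRCh37.
COL13A1, chr10:71629071-71629221: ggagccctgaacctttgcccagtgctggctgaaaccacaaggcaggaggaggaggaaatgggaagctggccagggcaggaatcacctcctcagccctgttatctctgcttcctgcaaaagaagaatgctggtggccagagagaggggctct
PODXL, chr7:131242890-131243040: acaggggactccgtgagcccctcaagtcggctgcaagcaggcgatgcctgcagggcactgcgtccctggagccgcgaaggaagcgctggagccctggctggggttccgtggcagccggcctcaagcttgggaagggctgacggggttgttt

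H3K4me3 was gained at few regions. In SAP30-KO1 cells it was called at 5 and 16 regions in the 2 libraries and at 3 in both (0.168%; 0.0571 to 0.492%), beside 0.775% of the 8648 SAP30 regions without it in either parental library. Of the 4796 marked distal regions without it in either parental library, 0.459% (0.303 to 0.694%) had it in both SAP30-KO1 libraries, and the intervals overlapped. The reverse choice gave 32 of 1963 regions. The 3 lay in an intron of PODXL, in an exon of PRR36 and in an intron of CRYZ, a quinone reductase. The PODXL region was 1544 bp upstream of the nearest start site of that gene. The H3K4me3 ranks were 66.6% and 61.9%, 82.5% and 76.1%, and 88.9% and 99.7% in that order. PODXL and PRR36 also gained H3K9Ac. The 3 lay 1337 to 1544 bp from the nearest start site of any gene and 1682 to 2198 bp from parental H3K4me3.

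Of the genes in 6 lists chosen for this cell line and study, 1 to 4 per list were the nearest coding gene of an unmarked distal region, 10% to 26.7% of a list. Over all 20090 protein-coding genes the share was 7.60%. The lists are short, and no test was made. Of 10 genes followed by the study, 1 was: PDGFB, a platelet-derived growth factor, with a region 8041 bp upstream that ranked 77.1% and 95.5% and had H3K9Ac in SAP30-KO1 replicate 2 alone. Of 20 mesenchymal genes, 3 were, CD44, TNC and TGFBI. Of 20 luminal and epithelial genes, 2 were, CDH1 and CLDN7. Of 20 genes of angiogenesis and motility, 4 were: the neuropilins NRP1 and NRP2, ANGPT2 and ADM. Of 15 YAP and AP-1 genes, 4 were: ANKRD1, ATF3, TEAD1 and WWTR1, a YAP paralog with 2 regions. Of 15 neuronal genes, 2 were, SCG2 and CHGA, both of the granin family, with mean ranks of 35.5% and 35.3%. Marked distal regions had 50% to 70% of the genes of these lists except the neuronal one (46.7%), against 20.7% of all protein-coding genes.

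Among these listed genes, H3K9Ac in both SAP30-KO1 libraries was found at TEAD1, a DNA-binding partner of YAP, in an intron 50968 bp from its start site, and 1587 bp from parental H3K9Ac. At CD44, the hyaluronan receptor, the region lay 37485 bp upstream, ranked 49.2% on average and had H3K9Ac in SAP30-KO1 replicate 2 alone. At CDH1, which encodes E-cadherin, the region lay in an intron 4524 bp from the start site with a mean rank of 64.2%. It held an AP-1 match and no H3K9Ac, H3K4me3 or Pol II summit in any library.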

How the data were processed

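Of 30 samples, the 18 with deposited peak lists were used, 2 libraries in each of 9 groups. Per the submitters' processing notes the tools were FastQC 0.11.2, Bowtie2 2.3.3.1, Picard and MACS2 2.1.0, with build hg19. The order, options and controls are not given in the sources used here. The authors called peaks per library and deposited summits of 1 bp, each with the −log10 of its q-value, the lowest being 1.30. Depth is unknown, and weaker peaks are not in the lists, so an absent summit is not an absent protein. Peak widths are not in the lists either, so an unmarked region may still lie within a broader marked stretch. Scores served only to rank summits within a list, since they depend on depth and enrichment.

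The 1787 regions, gene lists and motifs were chosen with earlier results of these data known. Summits on chromosomes 1 to 22 and X were extended by 500 bp at each side and merged where they shared at least 1 bp, with Python 3.11.15, numpy 2.4.6, scipy 1.17.1 and pysam 0.24.0. Every summit lay inside the GRCh37 chromosomes. Start sites, exons, introns and UTRs were those of coding and lncRNA genes of GENCODE release 44 lifted to GRCh37, and nearest start sites used basic transcripts. Sequences came from the GRCh37 assembly. The windows of 1000 bp to either side of a start site covered 90258318 bp. Genes and regions named were the 10 best by SAP30 rank, the 5 best gained per mark, the genes with the most regions (7, with ties) and every listed gene with a region. Of the 10 best, 1 is not reported here by name, though it is counted. Exceptions are stated where made. The 1 measure tested was Pol II, which the choice did not use, by an exact permutation test of library counts. Region classes, H3K9Ac gain counts and motif searches were tested on simulated lists. In those lists regions lay far apart, with SIN3 and H3K9Ac summits near the SAP30 summit. Cases near the limits of the rule, SIN3B without SIN3A and H3K4me3 at regions were not tried. Alternatives were other extensions, windows, ranks and list lengths, single libraries left out, and the replicate number as a block.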

Additional observations from a re-analysis of the deposited data

How the results depend on the processing

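The share of regions in introns stayed within 62.8% to 64.3% under its 4 alternatives. The number of regions was 1479 to 2512 under 6 alternatives of extension, SIN3, start sites or marks, but 299 with the better-ranked 50% of each SAP30 list, and 3015 to 3553 with either SAP30 library left out, since more regions then need a single summit. Their median SAP30 rank was 63.9% to 64.9% with either library left out and 67.6% for the 1479 without a SIN3 summit in any single library. The Pol II ratio of SAP30-KO1 to parental was 1.11 with the better-ranked 50% of each Pol II list, which left 3 to 6 regions per library, and 0.510 to 0.777 under the other alternatives. Of these, the replicate block gave 0.615 (exact sign-flip p = 0.50, the smallest that 2 pairs can give). The replicate numbers are only shared numbers, and with 2 pairs no more can be learned from them. Regions more than 2000 bp from parental marks, an alternative chosen after seeing the data, gave 0.619. H3K9Ac gains numbered 124 in the report, 405 with a summit in either SAP30-KO1 library, 81 with the better-ranked 50% of each of the 4 lists, 8 with that of the SAP30-KO1 lists alone (chosen after seeing the data), 152 with lists of equal length and 239 to 313 with a library left out. H3K4me3 gains numbered 3, and were 18 in either library, 0 with the better-ranked 50% of each list or of the SAP30-KO1 lists alone, 5 with summits extended by 1000 bp, 32 in the reverse choice and 3 to 16 with a library left out. For either mark, regions with a parental summit could enter when the parental lists were halved or shortened or a parental library was left out. Those counts are therefore not limited to the 1787 regions. AP-1 letters were found in 29.0% and the CTCF motif in 1.40% of regions within 50 bp of the summit, a window of fewer bases; AP-1 was then at 21.2% in marked distal regions. Restricting to windows with few repeat-masked bases was not run, since the genome used carries no repeat masking. With 2 libraries per group the exact permutation test could not go below 0.33, and depth, which sets how many weak peaks are called, is unknown.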
